A study of Mus musculus with 16 samples.

Results

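The spliceosome core and SR protein genes were examined in the axonal and somatodendritic RNA of cultured mouse motoneurons with and without hnRNP R. Members were all protein-coding genes of the count table whose symbols begin with Snrp, Sf3a, Sf3b, Srsf, Prpf, Lsm or U2af, with a digit after the family name in every family except Snrp. This rule took 61 of the 46320 genes listed, and all 61 had enough reads to be among the 19964 genes tested. By role they were 8 Sm ring genes, 4 genes of proteins particular to the U1 or U2 small nuclear ribonucleoprotein (snRNP), 7 LSm genes of the U6 ring, 6 other LSm genes, 9 SF3A and SF3B genes, 3 U2AF genes, 11 SR protein genes and 13 PRPF genes.

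The 16 libraries came from motoneurons of the lumbar spinal cord of embryos at embryonic day 13, enriched by panning on the neurotrophin receptor p75NTR and grown in microfluidic chambers that part cell bodies and dendrites from axons. The 4 groups, with 4 libraries each, were the somatodendritic and the axonal compartment of wild-type (Hnrnpr +/+) motoneurons and the same compartments of knockout (Hnrnpr -/-) motoneurons. The knockout allele lacks a stretch of Hnrnpr that includes its first exons, is carried in every cell and stands on a C57Bl/6 background. CNTF at 5 ng/ml was given to both compartments of every chamber and BDNF at 20 ng/ml to the axonal compartment only. The labels do not say whether a library held 1 culture or pooled embryos, so the p-values measure the spread between these libraries.

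The spliceosome removes introns in the nucleus. Its snRNPs each carry a small RNA wrapped in a ring of Sm proteins or, for U6, of LSm proteins. U1 pairs with the 5′ splice site, U2AF and SF1 mark the 3′ splice site and branch point, SF3A and SF3B hold the U2 snRNP at the branch point, and the U4/U6.U5 tri-snRNP with its PRPF proteins brings in the catalytic RNAs. SR proteins bind exonic enhancers through RNA recognition motifs and recruit these parts through domains rich in arginine and serine, and some of them also shuttle to the cytoplasm with mRNA. The name pattern also took genes that are not part of the spliceosome. Lsm10 and Lsm11 belong to the U7 snRNP, which trims histone mRNA ends, Lsm1 takes the place of Lsm8 in a cytoplasmic ring that starts mRNA decay, and Lsm14a and Lsm14b encode translational repressors of processing bodies.

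Total counts ran from 22024923 to 34864151 per library. Hnrnpr was at 178 to 241 CPM (counts-per-million units, on library sizes scaled by the trimmed mean of M values, TMM) in +/+ somatodendritic libraries and 0.545 to 1.16 CPM in -/- ones, and at 120.0 to 422 and 0.597 to 1.104 CPM in the axonal libraries, as the labels have it. Of the motoneuron markers, Nefl was at a mean of 1226 CPM in the +/+ somatodendritic libraries, but Chat was at 0.899 CPM and Mnx1 at 0. The summed motoneuron list was at 1067 to 2008 CPM in +/+ somatodendritic and 96.7 to 437 CPM in +/+ axonal libraries, and the summed fibroblast list at 123 to 975 and 1241 to 11731 CPM. The corresponding -/- ranges were 1190.4 to 2019 and 42.0 to 1091 CPM for motoneuron markers and 219 to 1461 and 2325 to 10010.1 CPM for fibroblast markers. In +/+ axons, 0 of the 7 motoneuron markers tested were higher and 4 lower (edgeR), 3 of 8 fibroblast and 5 of 8 astrocyte or radial glia markers were higher and 0 lower, and 0 of 8 microglial markers passed, where 30.1% of all genes tested were higher and 27.4% lower. Of 7 nuclear RNAs 3 were higher, Malat1 (2.26 on the log2 scale, adjusted p = 0.000507), Neat1 (2.11) and Kcnq1ot1 (1.098), and 3 lower, and of 7 oligodendroglia or Schwann markers 1 was higher and 0 lower, Olig1 (1.55). In -/- axons 1 nuclear RNA, Neat1, and 1 oligodendroglial marker, Olig1, were higher, 3 nuclear RNAs and 4 motoneuron markers were lower, 3 fibroblast and 2 astrocyte or radial glia markers higher, and 0 microglial ones passed (27.5% and 26.8% of all genes). Axonal replicate 3 of each genotype had the highest fibroblast and the lowest motoneuron sum of its group. Acta2 alone made up 83.4% and 87.3% of the fibroblast sum there, and without Acta2 replicate 4 was highest (3955 against 1947 CPM in +/+ and 2785 against 1276 CPM in -/- axons). Within their groups, +/+ axonal replicate 2 had the highest sum of nuclear RNAs such as Malat1 (2747 CPM), and -/- axonal replicate 4 had the highest microglial sum (383 CPM). In bulk RNA of this kind, a smaller share of motoneuron material and less of an mRNA per axon cannot be told apart, and every axonal value below is to be read with these sums. Libraries of the somatodendritic groups resembled each other more (pairwise r across genes from 0.976 to 0.992) than axonal ones (0.904 to 0.969).

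In wild-type motoneurons, mRNAs of 7 of the 8 Sm ring genes and 6 of the 7 LSm genes of the U6 ring were enriched in the axonal compartment, whereas those of Lsm14b, Lsm11, Srsf12, Snrpn and Prpf19 were depleted. Relative to the somatodendritic compartment, 35 of the 61 genes were higher in axons (edgeR quasi-likelihood test, Benjamini-Hochberg adjusted p under 0.05, where 30.1% of all genes tested were higher), 10 were lower (27.4% of all genes tested) and 16 did not pass. The median log2 fold change of the 61 genes was 0.59, compared with 0.07 over all genes tested and 0.02 over the protein-coding ones. In -/- motoneurons 28 genes were higher in axons (27.5% of all genes tested), 7 were lower (26.8%) and 26 did not pass, with a median of 0.52 against 0.00 over all genes tested. Without +/+ axonal replicates 2 and 3, the libraries with the highest nuclear RNA and fibroblast (mainly Acta2) sums, 24 were higher and 8 lower (23.4% and 23.7% of all genes tested), and without -/- axonal replicates 3 and 4, 23 were higher and 4 lower (19.1% and 13.6%). The +/+ calls that ended in the first case were those of Lsm5, Lsm8, Lsm14a, Prpf8, Prpf38a, Sf3a3, Sf3b3, Snrpn, U2af1, Srsf2, Srsf5, Srsf7, Srsf10 and Srsf11, and the -/- calls that ended in the second included those of Snrpb2, Snrpe, Snrpn, Srsf12, Prpf3, Prpf38a and Prpf40b. Without axonal replicate 4 alone, highest in the other fibroblast markers, 38 were higher and 8 lower in +/+ and 27 and 6 in -/- axons. Of all 19964 genes tested, 5908 were then higher and 5412 lower in +/+ and 5007 and 4512 in -/- axons. In +/+ libraries the axonal and somatodendritic values did not overlap for 29 genes that were higher (24.8% of all genes tested) and 9 that were lower (27.6%). In -/- libraries this held for 28 higher (24.1%) and 6 lower (27.3%) genes. The sign of the fold change was the same in both genotypes for 59 of the 61 genes, 28 were higher in both and 7 lower in both. These joint counts were not taken over all genes tested, so they describe the 61 genes only. Of the 10 genes that passed in +/+ libraries only, none passed a test of the difference between the genotypes, which is given with the genotype comparison. With the replicate number as a block, 28 were higher and 10 lower in +/+ axons and 32 and 8 in -/- axons, where Lsm5, Srsf2 and Srsf5 of these 10 also passed. Over all 19964 genes tested, the block gave 4930 higher and 5100 lower in +/+ and 5238 and 5543 in -/- axons.

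**Figure D1:**
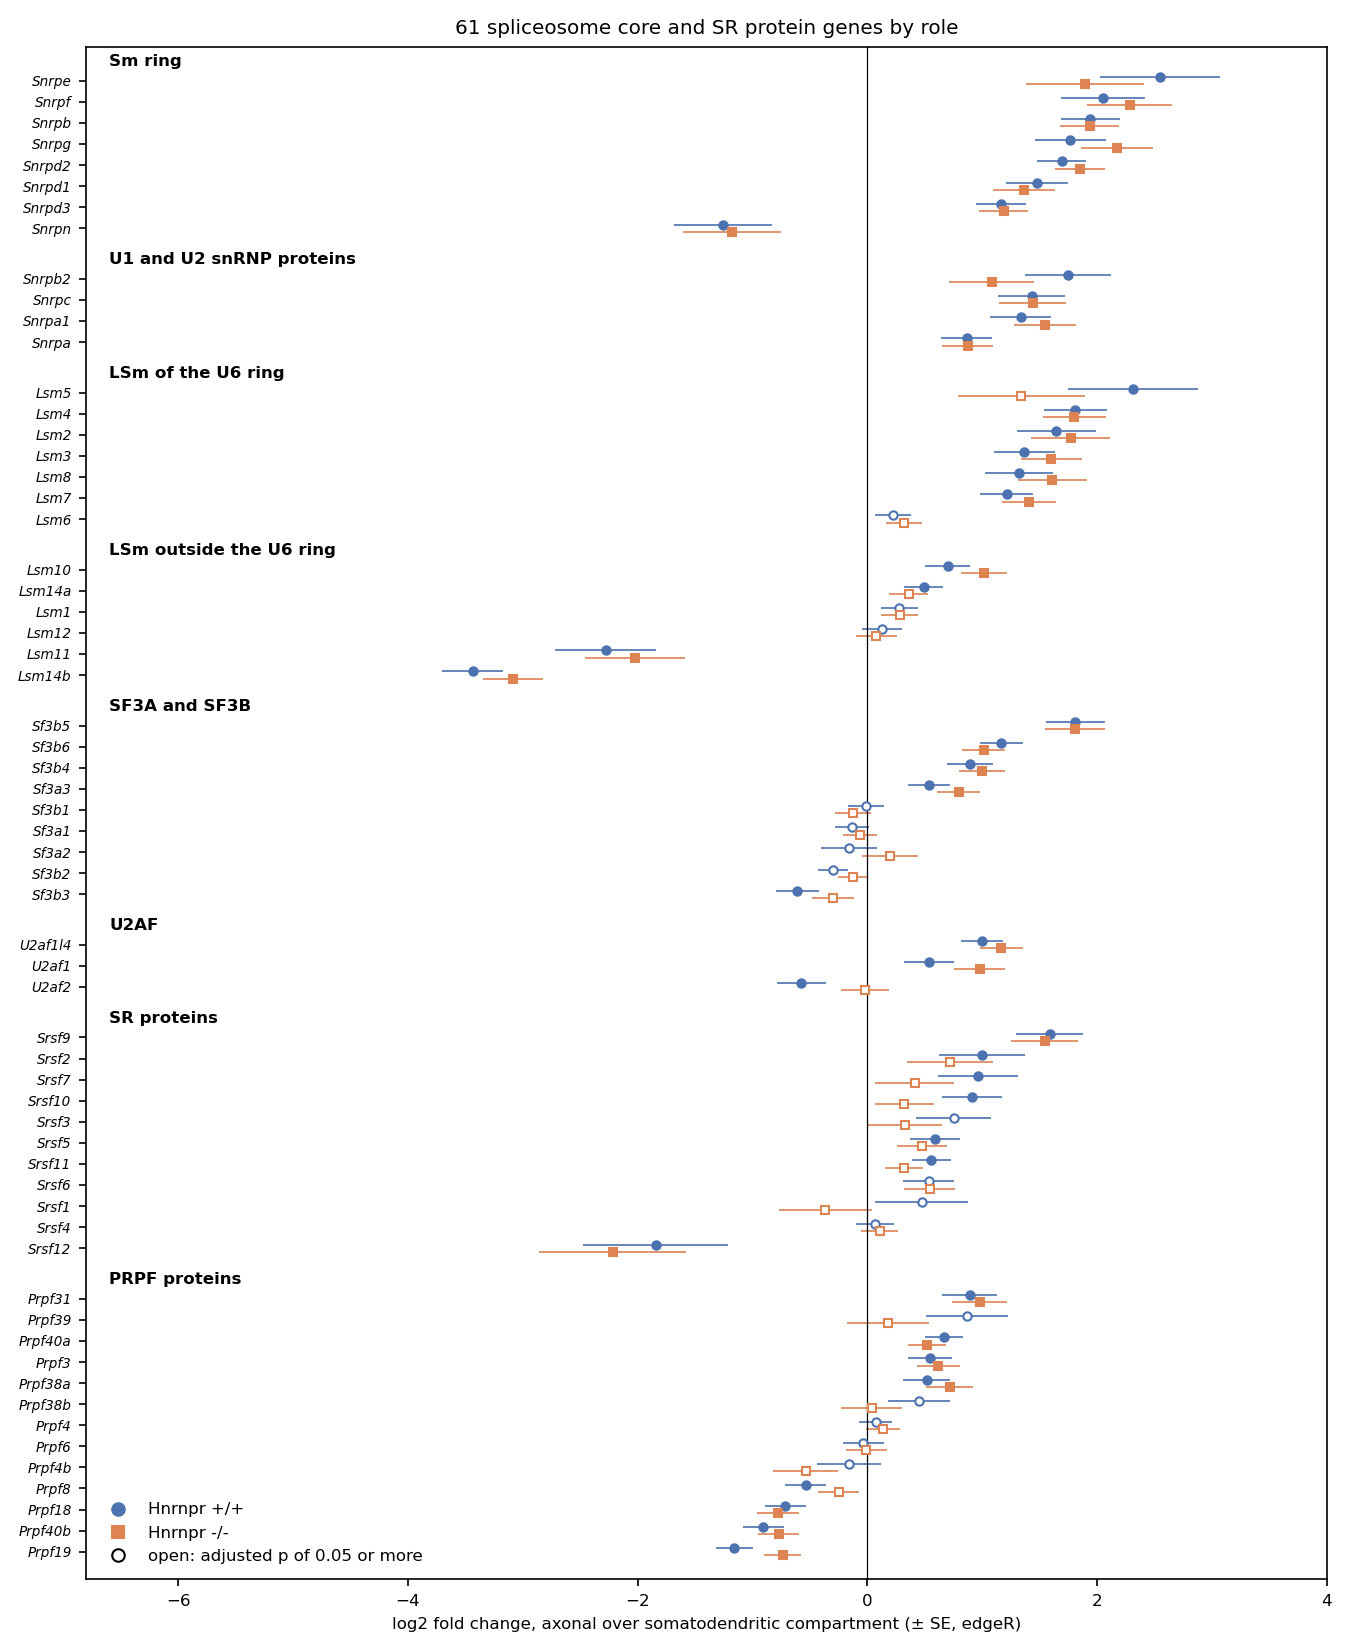
Log2 fold change of axonal over somatodendritic RNA (x axis, with standard errors) for the 61 genes, grouped by role (y axis), in Hnrnpr +/+ (blue circles) and Hnrnpr -/- (orange squares) libraries, 4 per group. Open symbols did not reach an adjusted p under 0.05. The Sm ring, the U1 and U2 proteins and the U6 LSm ring lie right of 0 apart from Snrpn, while Lsm14b lies farthest left in both genotypes.

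The Sm ring, the heptamer around the U1, U2, U4 and U5 RNAs, had the highest median fold change of the role groups. Of its 8 genes, 7 were higher in axons and 1, Snrpn, was lower, in each genotype (edgeR, beside 30.1% higher and 27.4% lower of all genes tested in +/+ and 27.5% and 26.8% in -/- axons), with a median log2 fold change of 1.73 in +/+ and 1.87 in -/- libraries. Near-identical copies elsewhere in the genome (at least 95% identity) cover 84.2% of the Snrpd1 transcript and 58.9% of that of Snrpe. For Snrpf, Snrpg, Snrpd2 and Snrpn they cover 39.0%, 37.4%, 34.3% and 32.1%. Snrpb and Snrpd3 have none, and reads that map to several places were counted as fractions. Snrpb encodes SmB, and lies at chr2:130013556-130031184 (GRCm39). Snrpb was at 105, 97.0, 104 and 87.0 CPM in the +/+ somatodendritic libraries and 327, 321, 585 and 281 CPM in the +/+ axonal ones. Knockout somatodendritic libraries held 79.1, 118, 117 and 108 CPM, and knockout axonal libraries 273, 359, 573 and 411 CPM. Every axonal library lay above every somatodendritic one, with a log2 fold change of 1.94 ± 0.26 (SE) in +/+ (edgeR adjusted p = 5.37e-05) and 1.94 ± 0.26 in -/- (adjusted p = 7.25e-05). Replicate 3 was the highest of each axonal group.

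Snrpe, another ring subunit, had the largest fold change of the 61 genes in +/+ axons, and the widest spread of values relative to its mean there. Snrpe was at 21.3, 16.02, 15.5 and 32.95 CPM in the +/+ somatodendritic libraries and 54.7, 312, 98.1 and 36.6 CPM in the +/+ axonal ones. Without hnRNP R, the values were 12.7, 15.7, 18.3 and 15.2 CPM in cell bodies and dendrites and 42.2, 51.7, 73.8 and 62.6 CPM in axons. Axonal replicate 2 of the +/+ group stood far above the other 3, and the groups did not overlap in either genotype. The log2 fold changes were 2.55 ± 0.52 (edgeR adjusted p = 0.000991) and 1.89 ± 0.51 (adjusted p = 0.00634), and 1.56 in +/+ without replicate 2 (adjusted p = 0.00136). Without -/- axonal replicates 3 and 4 the second was 1.64 (adjusted p = 0.0516). Snrpf rose by 2.05 ± 0.37 and 2.29 ± 0.37 in +/+ and -/- axons from the lowest somatodendritic level per length of all 61 genes, 4.62 ± 1.37 FPKM (CPM per kilobase of summed exons, mean ± SD, n = 4). The 4 other ring genes that were higher, Snrpg, Snrpd2, Snrpd1 and Snrpd3, had log2 fold changes of 1.77, 1.69, 1.48 and 1.17 in +/+ and 2.17, 1.85, 1.37 and 1.19 in -/- libraries.

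Snrpn went the other way. It encodes SmN, which takes the place of SmB in brain and is expressed from the paternal allele of an imprinted region, here at chr7:59632243-60099925 (GRCm39). Snrpn was at 385, 390.5, 434 and 439 CPM in the +/+ somatodendritic libraries and 189, 229, 100.3 and 173 CPM in the +/+ axonal ones. Its level in -/- motoneurons was 409, 439, 409.8 and 332 CPM somatodendritically, against 379, 178, 57.1 and 89.1 CPM in axons. In +/+ motoneurons all axonal libraries lay below all somatodendritic ones, while in -/- motoneurons axonal replicate 1 fell within the somatodendritic range. The log2 fold changes were -1.25 ± 0.43 (edgeR adjusted p = 0.0208) and -1.18 ± 0.43 (adjusted p = 0.0294). These calls were not stable, since without +/+ axonal replicate 3 the first became -1.08 (adjusted p = 0.0550) and without -/- axonal replicates 3 and 4 the second became -0.47 (adjusted p = 0.253). The -/- call held in 10 of 18 alternative settings. It also ended without any single one of -/- somatodendritic replicates 1, 2 and 3 or axonal replicates 2, 3 and 4.

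The order of Snrpb and Snrpn, the genes for the SmB position of the ring, differed between compartments. Per length, the ratio of Snrpb to Snrpn was 0.566 to 0.782 in the 4 +/+ somatodendritic libraries and 4.01 to 16.7 in the 4 axonal ones. The -/- ratios were 0.553 to 0.933 and 2.06 to 28.7. Snrpn had the highest FPKM of the 61 genes in somatodendritic RNA (101 ± 6.94 in +/+, 97.0 ± 11.2 in -/-, mean ± SD), and Snrpb had the highest in axonal RNA (264 ± 97.2 and 282 ± 88.0). In +/+ axons Snrpe came next at 255 ± 258 FPKM, a mean that does not differ from that of Snrpb beyond its SD, and Snrpd3 followed at 172 ± 50.5. That Snrpe mean is carried by replicate 2. In -/- axons Snrpd3 came next to Snrpb at 167 ± 35.3 FPKM, ahead of Snrpe at 117 ± 27.8. Of the exon bases of Snrpn, 25.7% are shared with Snurf and other genes on the same strand, and counts were split between such genes.

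In +/+ somatodendritic RNA the genes next in order per length were Snrpd3 (76.5 ± 9.41 FPKM), Sf3b2 (73.5 ± 7.15), Srsf3 (69.6 ± 14.04) and Snrpb (68.6 ± 5.88), whose means differ by less than the widest of these SDs. The median FPKM of the 61 genes was 20.9 in +/+ and 18.9 in -/- somatodendritic RNA, and 33.1 and 25.7 in axonal RNA. Together the 61 genes took 0.421% to 0.499% of the counts of a somatodendritic library and 0.457% to 0.777% of those of an axonal one. Their spread between replicates was wider in axons, with a median coefficient of variation of 28.8% in +/+ and 22.8% in -/- axonal libraries against 11.3% and 16.1% in somatodendritic ones. Replicate 3 was the highest of its axonal group for 33 of the 61 genes in +/+ and 45 in -/- motoneurons, and replicate 2 was the highest for another 19 in +/+ axons.

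**Figure D2:**
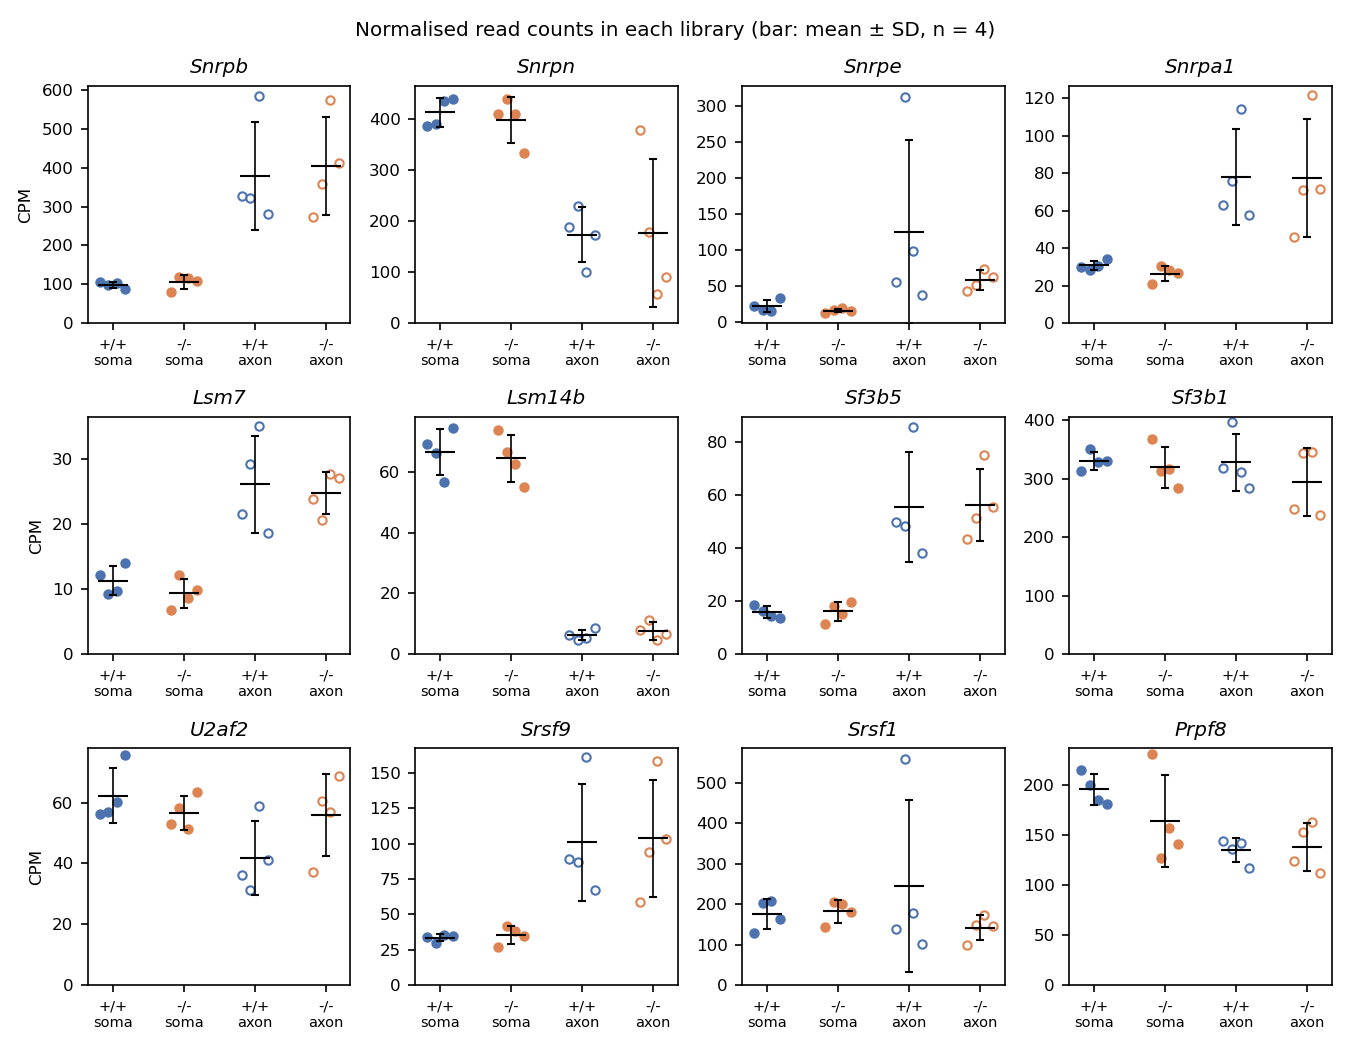
TMM-scaled CPM (y axis) of 12 of the genes in each of the 16 libraries, by compartment and genotype (x axis), with filled points for somatodendritic and open points for axonal libraries and bars for mean ± SD of 4 libraries. All axonal values of Snrpb, Snrpe, Sf3b5 and Srsf9 lie above the somatodendritic ones in both genotypes, those of Lsm14b lie below, and those of Sf3b1 and Srsf1 overlap with them.

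All 4 genes for proteins particular to U1 or U2 were higher in axons in both genotypes (edgeR, beside 30.1% and 27.5% of all genes tested), with median log2 fold changes of 1.38 and 1.26. Snrpa1, the U2-A′ protein, is typical of them. Snrpa1 was at 30.1, 28.2, 30.7 and 34.3 CPM in the +/+ somatodendritic libraries and 63.0, 76.1, 114 and 57.7 CPM in the +/+ axonal ones. The -/- values were 20.8, 30.4, 28.1 and 26.5 CPM in the somatodendritic and 45.9, 70.9, 122 and 71.6 CPM in the axonal compartment. No axonal library overlapped with the somatodendritic ones, and the log2 fold changes were 1.34 ± 0.27 (edgeR adjusted p = 0.000837) and 1.55 ± 0.27 (adjusted p = 0.000378). Snrpb2, which encodes the partner of U2-A′ named U2-B″, rose by 1.75 ± 0.38 in +/+ and 1.08 ± 0.37 in -/- axons, and its +/+ axonal values of 23.4, 76.1, 42.2 and 21.02 CPM again put replicate 2 on top. The U1 proteins U1-C (Snrpc) and U1-A (Snrpa) had log2 fold changes of 1.43 and 0.87 in +/+ and 1.44 and 0.88 in -/- libraries.

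The LSm ring of U6, encoded by Lsm2 to Lsm8, binds the oligo-U tail of U6 RNA in the nucleus. In +/+ axons 6 of the 7 genes were higher (edgeR, median log2 fold change 1.37, beside 30.1% of all genes tested), and in -/- axons 5 were (median 1.603, beside 27.5%). Lsm7 was at 12.2, 9.27, 9.69 and 13.99 CPM in the +/+ somatodendritic libraries and 21.7, 29.3, 35.1 and 18.6 CPM in the +/+ axonal ones. Knockout somatodendritic libraries held 6.75, 12.1, 8.67 and 9.82 CPM, and knockout axonal libraries 23.9, 20.7, 27.7 and 27.1 CPM. Its groups did not overlap, and the log2 fold changes were 1.21 ± 0.23 (edgeR adjusted p = 0.000637) and 1.41 ± 0.24 (adjusted p = 0.000287). Lsm4, Lsm2, Lsm3 and Lsm8 were also higher in both genotypes, by 1.32 to 1.81 in +/+ and 1.603 to 1.80 in -/- libraries on the log2 scale. Lsm5 had the largest change of the ring in +/+ axons, 2.31 ± 0.57 (adjusted p = 0.00309), from a low level of 2.47, 2.16, 1.74 and 4.51 CPM to 6.47, 30.2, 12.8 and 4.53 CPM. Without +/+ axonal replicates 2 and 3 it was 1.00 (adjusted p = 0.104), and Lsm8 was 0.80 (adjusted p = 0.0512). In -/- libraries its difference was 1.34 ± 0.55 (adjusted p = 0.0510), and with the replicate number as a block it was 1.46 (adjusted p = 0.0115). Lsm6 did not pass in either genotype, at 0.23 ± 0.16 and 0.32 ± 0.16.

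The 6 LSm genes outside the U6 ring held the most depleted mRNA of all. Lsm14b, a cytoplasmic repressor of translation, lies at chr2:179666694-179677259 (GRCm39). Lsm14b was at 69.4, 66.2, 56.7 and 74.7 CPM in the +/+ somatodendritic libraries and 6.27, 4.76, 5.17 and 8.47 CPM in the +/+ axonal ones. Without hnRNP R, the values were 73.9, 66.6, 62.7 and 55.0 CPM in cell bodies and dendrites and 7.90, 11.3, 4.50 and 6.66 CPM in axons. Every axonal library was below every somatodendritic one. The log2 fold changes of -3.44 ± 0.26 in +/+ (edgeR adjusted p = 3.03e-06) and -3.09 ± 0.26 in -/- (adjusted p = 1.15e-05) were the lowest of the 61 genes, as was its axonal level per length, 1.74 ± 0.470 and 2.14 ± 0.804 FPKM. Its paralogue Lsm14a was at log2 fold changes of 0.49 ± 0.17 (adjusted p = 0.0210) and 0.36 ± 0.17 (adjusted p = 0.0815). The FPKM ratio of Lsm14a to Lsm14b was 0.613 to 1.12 in +/+ somatodendritic and 8.74 to 15.5 in +/+ axonal libraries, and 0.719 to 1.07 and 6.99 to 21.6 in -/- ones.

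Lsm11 and Lsm10, the LSm proteins of the U7 snRNP, moved in opposite directions. Lsm11 was at 230.1, 282, 217 and 229 CPM in the +/+ somatodendritic libraries and 54.2, 51.8, 22.5 and 69.0 CPM in the +/+ axonal ones. Its level in -/- motoneurons was 312, 248, 238 and 217 CPM somatodendritically, against 118, 77.0, 20.2 and 34.9 CPM in axons. Both axonal groups lay wholly below the somatodendritic ones, with log2 fold changes of -2.28 ± 0.44 (edgeR adjusted p = 0.000674) and -2.02 ± 0.44 (adjusted p = 0.00160). Lsm10 rose by 0.70 ± 0.20 (adjusted p = 0.00709) and 1.02 ± 0.20 (adjusted p = 0.000781). For the decay factor Lsm1 the differences were 0.28 ± 0.16 and 0.28 ± 0.16, and for Lsm12 they were 0.13 ± 0.18 and 0.08 ± 0.18, none of which passed.

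Within the SF3A and SF3B complexes, subunits of one assembly differed. Sf3b5, Sf3b6, Sf3b4 and Sf3a3 were higher in axons in both genotypes, and the other 5 genes were not. Sf3b5 had the largest change. Sf3b5 was at 18.7, 16.4, 14.4 and 13.7 CPM in the +/+ somatodendritic libraries and 49.96, 48.2, 85.8 and 38.1 CPM in the +/+ axonal ones. The -/- values were 11.4, 18.2, 15.1 and 19.7 CPM in the somatodendritic and 43.4, 51.3, 75.4 and 55.6 CPM in the axonal compartment. Its axonal and somatodendritic values did not overlap, and the log2 fold changes were 1.81 ± 0.26 (edgeR adjusted p = 8.69e-05) and 1.81 ± 0.26 (adjusted p = 0.000111). Sf3b6, which contacts the branch point, rose by 1.17 and 1.01, Sf3b4 by 0.89 and 1.00, and Sf3a3 by 0.54 and 0.80 on the log2 scale in +/+ and -/- axons. The +/+ call of Sf3a3 held in 12 of 18 alternative settings and ended with the replicate number as a block.

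Sf3b1, the large scaffold of SF3B around the branch point helix, stood near 0. Sf3b1 was at 314, 350.0, 328 and 329.6 CPM in the +/+ somatodendritic libraries and 319, 397, 312 and 284 CPM in the +/+ axonal ones. Knockout somatodendritic libraries held 367, 312, 316 and 283 CPM, and knockout axonal libraries 248, 344, 345 and 238 CPM. The groups overlapped, with log2 fold changes of -0.01 ± 0.16 (edgeR adjusted p = 0.960) and -0.12 ± 0.16 (adjusted p = 0.529). Sf3b3, a propeller-shaped scaffold subunit, fell by 0.61 ± 0.19 on the log2 scale in +/+ axons (adjusted p = 0.0121), and in -/- axons its difference was -0.30 ± 0.19 (adjusted p = 0.190). Sf3a1, Sf3a2 and Sf3b2 did not pass in either genotype, at -0.30 to -0.13 in +/+ libraries. In all, 4 of the 9 genes were higher and 1 lower in +/+ axons (median log2 fold change -0.01, beside 30.1% higher and 27.4% lower of all genes tested), and 4 were higher and 0 lower in -/- axons (27.5% and 26.8% of all genes, 0 lower also at an unadjusted p under 0.05), where Sf3b3 and Sf3b2 had unadjusted p-values of 0.131 and 0.370.

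The U2AF heterodimer marks the 3′ splice site, its large subunit U2af2 on the polypyrimidine tract and its small subunit on the AG. The small subunit U2af1 was higher in axons by 0.54 ± 0.22 in +/+ (edgeR adjusted p = 0.0474) and 0.98 ± 0.22 in -/- libraries (adjusted p = 0.00207), and its paralogue U2af1l4 by 1.00 ± 0.18 and 1.17 ± 0.19. U2af2 was at 56.3, 57.0, 60.1 and 75.7 CPM in the +/+ somatodendritic libraries and 36.0, 31.1, 58.9 and 41.3 CPM in the +/+ axonal ones. Without hnRNP R, the values were 53.1, 58.2, 51.2 and 63.6 CPM in cell bodies and dendrites and 37.0, 60.7, 57.0 and 68.6 CPM in axons. In +/+ axons replicate 3 reached into the somatodendritic range, and in -/- axons 3 of 4 libraries lay within or above it. Its log2 fold change was -0.57 ± 0.21 in +/+ (adjusted p = 0.0309) and -0.02 ± 0.21 in -/- (adjusted p = 0.951). The +/+ call of U2af1 held in 7 and that of U2af2 in 10 of 18 alternative settings.

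In +/+ axons 6 of 11 genes were higher, 1 was lower and 4 did not pass (edgeR, median log2 fold change 0.59, beside 30.1% higher and 27.4% lower of all genes tested), and in -/- axons 1 was higher, 1 lower and 9 did not pass (median 0.33, beside 27.5% and 26.8%). The number higher ran from 1 to 8 in +/+ and from 1 to 4 in -/- axons over the alternative settings. It was 3 in +/+ axons without somatodendritic replicate 1 or axonal replicate 2, 1 without axonal replicates 2 and 3 together, and 4 in -/- axons without axonal replicate 1. With the replicate number as a block, 3 were higher in +/+ and 4 in -/- axons, so the order of the counts turned. The +/+ calls of Srsf5, Srsf7 and Srsf11 ended under the block (adjusted p = 0.0659, 0.114 and 0.0650), and the -/- calls then included Srsf2 (0.66, adjusted p = 0.0403), Srsf5 (0.47, adjusted p = 0.0485) and Srsf6 (0.54, adjusted p = 0.0396). Without the block, Srsf9 was the 1 gene higher in both genotypes. Srsf9 was at 34.0, 29.6, 35.6 and 34.9 CPM in the +/+ somatodendritic libraries and 88.8, 87.1, 161 and 66.9 CPM in the +/+ axonal ones. Its level in -/- motoneurons was 27.1, 42.0, 37.9 and 35.0 CPM somatodendritically, against 58.6, 94.0, 159 and 103 CPM in axons. Its groups did not overlap, and it rose by 1.59 ± 0.29 (adjusted p = 0.000466) and 1.55 ± 0.29 (adjusted p = 0.000649). Of its exon bases, 71.7% are shared with genes on the opposite strand, mainly Gatc, and the kit does not keep strand.

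The other SR genes that were higher in +/+ axons were Srsf2, Srsf7, Srsf10, Srsf5 and Srsf11, by 0.56 to 1.00 on the log2 scale, against 0.32 to 0.72 in -/- axons, where none of them passed (adjusted p from 0.0766 to 0.330). Srsf7, an adaptor for mRNA export, shows the weight of 1 library. Srsf7 was at 132, 163, 143 and 151 CPM in the +/+ somatodendritic libraries and 202, 569, 267 and 114 CPM in the +/+ axonal ones. The -/- values were 123, 184, 147 and 150.1 CPM in the somatodendritic and 156, 193, 268 and 188 CPM in the axonal compartment. Replicate 2 of the +/+ axonal group stood far above every other axonal library, and replicate 4 lay below the somatodendritic range. The log2 fold change of 0.97 ± 0.35 (edgeR adjusted p = 0.0275) became 0.40 without replicate 2 (adjusted p = 0.179). Of the 11 SR genes, 8 were highest in that library among +/+ axonal libraries. Without it 3 SR genes were higher, and without it and replicate 3 together 1 was.

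Srsf1, the SR protein known as SF2/ASF, did not pass in either genotype. Srsf1 was at 129, 204, 208 and 164 CPM in the +/+ somatodendritic libraries and 138, 560.0, 178 and 102 CPM in the +/+ axonal ones. Knockout somatodendritic libraries held 143, 205, 201 and 181 CPM, and knockout axonal libraries 98.7, 149, 173 and 146 CPM. Apart from +/+ axonal replicate 2 the axonal values lay within or below the somatodendritic range. The log2 fold changes were 0.47 ± 0.41 (edgeR adjusted p = 0.331) and -0.36 ± 0.41 (adjusted p = 0.465), and the first became -0.34 without that library. Srsf3, Srsf6 and Srsf4 also did not pass, at 0.75 ± 0.32, 0.54 ± 0.22 and 0.07 ± 0.16 in +/+ libraries.

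Srsf12, a relative of Srsf10, was the SR gene depleted from axons. Srsf12 was at 81.2, 90.9, 90.6 and 76.4 CPM in the +/+ somatodendritic libraries and 20.8, 44.0, 5.26 and 24.5 CPM in the +/+ axonal ones. Without hnRNP R, the values were 88.3, 99.8, 91.6 and 67.1 CPM in cell bodies and dendrites and 44.6, 19.0, 3.66 and 7.26 CPM in axons. All axonal libraries lay below all somatodendritic ones, over a wide range in which replicate 3 was the lowest of each genotype. The log2 fold changes were -1.84 ± 0.63 (edgeR adjusted p = 0.0217) and -2.22 ± 0.64 (adjusted p = 0.00923), and the second became -1.40 without -/- axonal replicates 3 and 4 (adjusted p = 0.0744). Per length, the ratio of Srsf10 to Srsf12 was 0.289 to 0.348 in +/+ somatodendritic and 1.26 to 8.35 in +/+ axonal libraries, and 0.262 to 0.441 and 0.639 to 12.3 in -/- ones.

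Of the 13 PRPF genes, 4 were higher, 4 lower and 5 did not pass in +/+ axons (edgeR, median log2 fold change 0.07, beside 30.1% higher and 27.4% lower of all genes tested), and in -/- axons 4 were higher and 3 lower (27.5% and 26.8% of all genes). Prpf19, the ubiquitin ligase that gives the PRP19 complex its name, was the lowest of them in +/+ axons, and lies at chr19:10872595-10886923 (GRCm39). Prpf19 was at 296, 292, 282 and 323 CPM in the +/+ somatodendritic libraries and 135, 114, 174 and 113 CPM in the +/+ axonal ones. Its level in -/- motoneurons was 275, 259, 251 and 269 CPM somatodendritically, against 119, 178, 172 and 164 CPM in axons. No axonal library reached the somatodendritic range, and Prpf19 fell by 1.16 ± 0.16 in +/+ (adjusted p = 7.31e-05) and 0.74 ± 0.16 in -/- axons (adjusted p = 0.00158) on the log2 scale. Prpf40b, a U1-associated protein, and Prpf18, a factor of the second catalytic step, were lower in both genotypes, at -0.91 and -0.71 in +/+ and -0.77 and -0.78 in -/- libraries.

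Prpf8, the scaffold of the catalytic centre in U5, was lower in +/+ axons. Prpf8 was at 215, 199.9, 186 and 182 CPM in the +/+ somatodendritic libraries and 144, 136, 142 and 117 CPM in the +/+ axonal ones. The -/- values were 231, 127, 157 and 141 CPM in the somatodendritic and 124, 153, 163 and 112 CPM in the axonal compartment. The +/+ groups did not overlap and the -/- groups did. The log2 fold changes were -0.54 ± 0.18 (edgeR adjusted p = 0.0199) and -0.25 ± 0.18 (adjusted p = 0.257). The +/+ call of Prpf8 held in 12 of 18 alternative settings, and with library totals it ended (-0.39, adjusted p = 0.0644). Among those higher in both genotypes were the U4/U6 proteins Prpf31 (0.89 in +/+ and 0.98 in -/- on the log2 scale) and Prpf3 (0.55 and 0.62), and Prpf38a of the activating spliceosome (0.52 and 0.72). The +/+ calls of Prpf3 and Prpf38a held in 13 and 9 of 18 alternative settings. Both ended with the replicate number as a block. Prpf39, Prpf38b, Prpf4, Prpf6 and Prpf4b did not pass in either genotype, with +/+ log2 fold changes from -0.16 to 0.87. For Prpf39 (adjusted p = 0.0501) the +/+ difference passed in 8 of 18 alternative settings, and without axonal replicate 2, its highest library, it was 0.15 (adjusted p = 0.492). The kinase Prpf4b was lower in -/- axons with the replicate number as a block (-0.51, edgeR adjusted p = 0.0344), against -0.54 (adjusted p = 0.118) without it.

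Ratios within paralogue pairs were computed for 10 pairs, which were chosen after values were seen and are given as a description. In both genotypes the ratios of Snrpb to Snrpn, Lsm14a to Lsm14b and Srsf10 to Srsf12 did not overlap between compartments. None of the 20 compartment differences passed after adjustment (two-sided exact permutation test, 4 against 4 libraries, smallest possible p = 0.0286, adjusted p = 0.0519). For Srsf3 to Srsf7 the compartments overlapped, with a mean log2 ratio that differed by -0.10 between +/+ axonal and somatodendritic libraries. No pair had ratios that were apart between genotypes in either compartment.

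Shorter mRNAs among the 61 genes had the higher axonal to somatodendritic fold changes. Across the 61 genes, Spearman's rho between the log2 fold change and the summed exon length of the RefSeq annotation was -0.72 in +/+ and -0.81 in -/- libraries, compared with -0.38 and -0.41 across the 15378 protein-coding genes tested. These are correlations across genes that share the same libraries, so they are given as a description. With the coding length in place of the exon length, rho for the 61 genes was -0.70 and -0.71. All 13 members under 1000 bases were higher in +/+ axons, against 76.0% of the 692 protein-coding genes of that length, and their median log2 fold changes were 1.48 and 1.43. Snrpe, Lsm3, Lsm5, Lsm7, Lsm8 and Sf3b5 were among these 13. The shares of all genes given beside the role groups above are not matched for length. Of the 13 members from 1000 to under 2000 bases, 12 were higher (54.2% of protein-coding genes of that length), and of the 15 from 2000 to under 4000 bases 7 were higher (31.7%) and 3 lower. Of the 20 members of 4000 bases or more, 3 were higher (17.1%) and 7 lower, with a median of 0.03 against -0.49 for protein-coding genes. In -/- axons the numbers higher in these classes were 12, 11, 4 and 1, beside 76.0%, 53.9%, 29.6% and 14.8% of protein-coding genes of the same length. The part of mRNA length, or of library preparation from the smaller axonal input, in these fold changes was not tested.

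**Figure D3:**
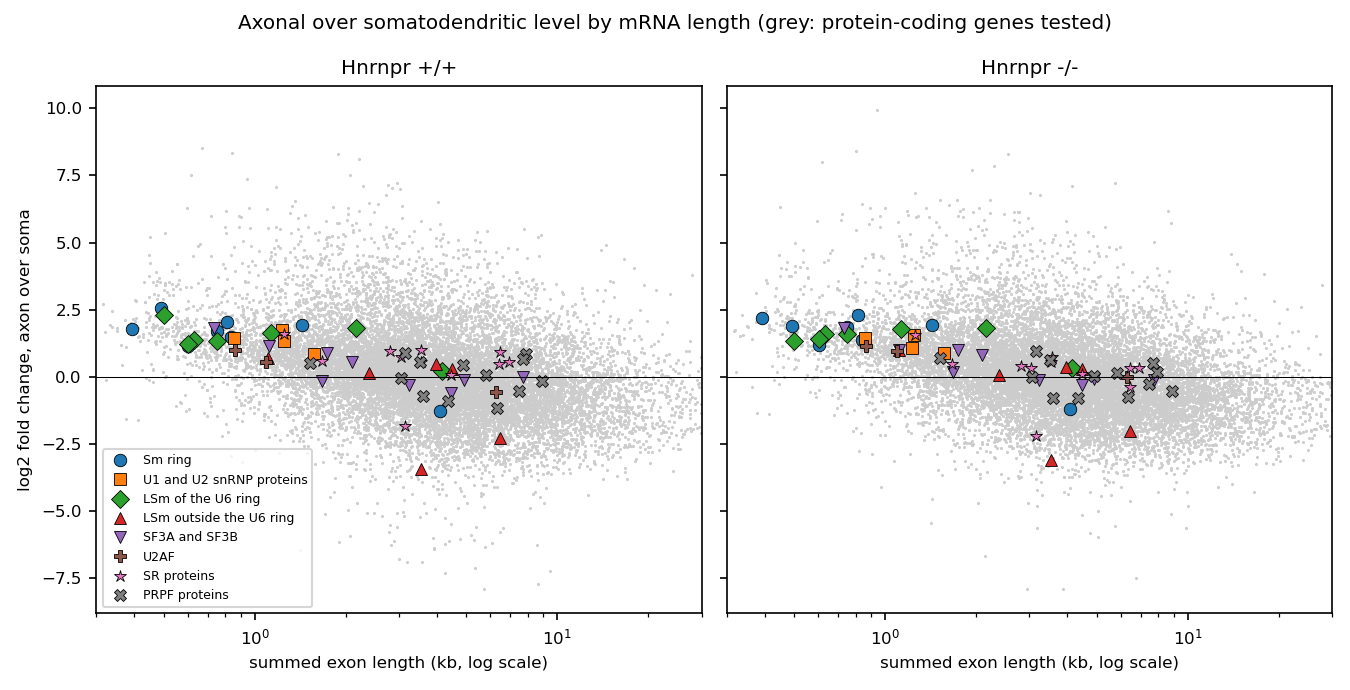
Log2 fold change of axonal over somatodendritic RNA (y axis) against summed exon length in kilobases (x axis, log scale) in Hnrnpr +/+ (left) and Hnrnpr -/- libraries (right). Coloured symbols are the 61 genes by role and grey points the protein-coding genes tested, and the 13 members under 1000 bases all lie above 0 in both panels.

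Promoters were read for the 51 members with an entry in the RefSeq promoter table (GRCm38.p6). The motif CCGGAAG, which ETS family transcription factors bind, occurred on either strand within 250 bases upstream in 17 of the 51 (33.3%), against 10.2% of 17491 protein-coding genes in that table and 13.7% of the 12119 that were tested here. It was present in 10 of the 29 members higher in +/+ axons, 2 of the 8 lower and 5 of the 14 that did not pass. The CCAAT box was as frequent in members (39.2%) as in the table (39.5%), as was the E-box CACGTG (7.8% and 7.6%). A match is a run of letters and says nothing on whether a factor binds there. The stretches shown are the last bases before the RefSeq start site, found in GRCm39 by exact match, 5′ to 3′ on the gene's strand, with CCGGAAG or its reverse complement CTTCCGG in capitals. Snrpg, Snrpb2 and Sf3b6 were higher in axons in both genotypes and hold it, and Snrpe, with the largest change in +/+ axons, does not. Snrpg is at chr6:86348272-86348521 (+), Snrpb2 at chr2:142904889-142904988 (+), Sf3b6 at chr12:4867508-4867607 (+) and Snrpe at chr1:133538019-133538118 (−).
Snrpg: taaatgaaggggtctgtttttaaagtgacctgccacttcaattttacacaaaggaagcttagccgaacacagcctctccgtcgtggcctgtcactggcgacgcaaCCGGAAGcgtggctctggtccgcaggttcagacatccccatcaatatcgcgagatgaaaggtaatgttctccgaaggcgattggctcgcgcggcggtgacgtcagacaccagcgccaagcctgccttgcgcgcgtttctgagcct
Snrpb2: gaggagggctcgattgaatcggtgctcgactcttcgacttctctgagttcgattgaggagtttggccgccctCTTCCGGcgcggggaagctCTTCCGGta
Sf3b6: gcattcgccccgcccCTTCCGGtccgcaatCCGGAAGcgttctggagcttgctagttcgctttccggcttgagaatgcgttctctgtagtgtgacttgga
Snrpe: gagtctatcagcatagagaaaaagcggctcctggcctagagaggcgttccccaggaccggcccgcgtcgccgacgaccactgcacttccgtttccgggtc
In Snrpb2 and Sf3b6 the motif occurs 2 times, and in Snrpb2 both copies read on the reverse strand just before the start site.

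Other spliceosome genes outside the name pattern were taken as 83 genes in 6 lists. In +/+ axons 29 were higher, 10 lower and 44 did not pass (edgeR, median log2 fold change 0.24), beside 30.1% higher and 27.4% lower of all genes tested with a median of 0.07. In -/- axons 31 were higher and 9 lower (median 0.25), beside 27.5% and 26.8%. Among 20 other U snRNP proteins 11 were higher and 2 lower in +/+ axons (median 0.47), from Snrnp48 of the minor spliceosome at 1.66 ± 0.30 (adjusted p = 0.000388) to Snrnp200, the U5 helicase that unwinds U4 from U6, at -1.51 ± 0.24 (adjusted p = 0.000188). Of 20 PRP19-associated and branch-point genes 10 were higher and 0 lower (0 lower also at an unadjusted p under 0.05), led by Syf2 (1.43) and Cwc15 (1.41), in contrast to Prpf19 itself. The 12 RNA helicases gave 2 higher and 3 lower, from Ddx39a (1.5995) to Ddx42 (-1.06). Of 20 SR-related and exon junction genes 6 were higher and 3 lower, from Magohb (1.77) and Magoh (1.57), the small exon junction subunits, to Luc7l (-1.13). Of the 8 SR protein kinases and importins 0 were higher (0 at an unadjusted p under 0.05) and 2 lower, Tnpo3 (-0.78), which imports SR proteins into the nucleus, and Srpk2 (-0.71). The 3 genes of Sm protein methylation, Prmt5, Wdr77 and Clns1a, did not pass in +/+ axons (-0.22 to 0.24), and 2 of them were higher in -/- axons.

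For comparison, 90 of 93 cytosolic ribosomal protein genes tested were higher and 0 lower in axons in each genotype (edgeR, also 0 lower at an unadjusted p under 0.05), with median log2 fold changes of 1.72 and 1.92, close to the medians of the Sm ring (1.73 and 1.87). Of the 21 hnRNP genes 7 were higher and 2 lower in +/+ axons (median 0.19, beside 30.1% and 27.4% of all genes tested), and 6 and 2 in -/- axons (median 0.18, beside 27.5% and 26.8%).

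Within the axonal libraries, levels of several of the genes ran with or against the summed motoneuron markers, of which Nefl and Nefm made up 93.2% to 99.1% per axonal library. Over the 8 axonal libraries, 3 of the 61 genes correlated positively with that sum (log2 of CPM + 1, exact permutation test over all pairings of libraries, two-sided, adjusted over the 19964 genes tested, of which 8.21% did so) and 5 negatively (3.15%). The positive ones were the depleted genes Snrpn (r = 0.977, exact p = 0.000893, adjusted p = 0.0184), Lsm11 (r = 0.963, exact p = 0.000273, adjusted p = 0.0127) and Srsf12 (r = 0.951, exact p = 0.000248, adjusted p = 0.0127). The strongest negative one was the enriched gene Snrpb (r = -0.935, exact p = 0.000372, adjusted p = 0.0134), and Sf3a3, Srsf9, Snrpa1 and Prpf38a followed (r from -0.934 to -0.899). Spearman's rho was 0.810 for Snrpn (exact p = 0.0218, adjusted p = 0.124), 0.881 for Lsm11 (exact p = 0.00724, adjusted p = 0.0750), 0.952 for Srsf12 (exact p = 0.00114, adjusted p = 0.0455) and -0.952 for Snrpb (exact p = 0.00114, adjusted p = 0.0455).

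On the log2 scale used, the 2 libraries farthest from the median sum were replicate 3 of each genotype. Without them r was 0.977 for Snrpn, 0.930 for Lsm11, 0.884 for Srsf12 and -0.877 for Snrpb. Of the 61 genes 52 had a negative and 9 a positive r, where 48.8% of all genes tested had a negative one. Each genotype alone has 4 axonal libraries, too few for a correlation within it. The sum is itself a share of each library, and the part of motoneuron content in the axonal differences was not tested. Lsm14b, the gene with the largest depletion, was not among those that passed (r = 0.586, exact p = 0.128).

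**Figure D4:**
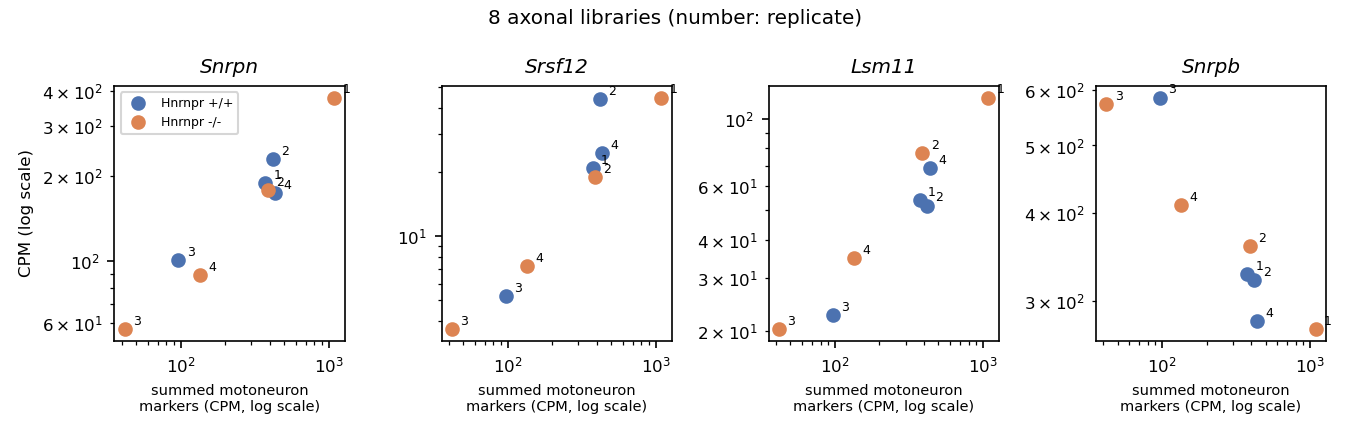
CPM of Snrpn, Srsf12, Lsm11 and Snrpb (y axes, log scale) against the summed CPM of the motoneuron markers (x axis, log scale) in the 8 axonal libraries, by genotype, with the replicate number beside each point. The first 3 genes rise with the marker sum and Snrpb falls, and replicate 3 of both genotypes has the lowest sums.

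No difference between Hnrnpr -/- and +/+ motoneurons passed the test for any of the 61 genes. In the somatodendritic compartment 0 of 61 reached an adjusted p under 0.05 (edgeR quasi-likelihood test, Benjamini-Hochberg, 0.00501% of all genes tested, which is Hnrnpr alone), and 0 reached an unadjusted p under 0.05 (2.75% of all genes tested). DESeq2 gave 0 in both counts, and limma voom gave 0 adjusted and 2 unadjusted. The axonal compartment likewise gave 0 adjusted (0.00501%, again Hnrnpr alone) and 0 unadjusted (0.857%), with 0 and 0 by DESeq2 and 0 and 1 by limma voom. For the interaction, which asks whether the genotype difference differed between compartments, 0 genes passed adjusted (0% of all genes tested) and 0 unadjusted (1.33%), with 3 unadjusted by limma voom.

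The somatodendritic log2 fold changes of -/- over +/+ ran from -0.50 ± 0.26 (Snrpf, unadjusted p = 0.0832 and adjusted p = 0.998 by edgeR) to 0.24 ± 0.25 (Srsf2), with a median standard error of 0.14, and all 61 lay within 0.5 of 0. The gene with the lowest p was Prpf19, at 296, 292, 282 and 323 CPM in +/+ and 275, 259, 251 and 269 CPM in -/- somatodendritic libraries. All 4 -/- values were below the +/+ values, the only such case among the 61 genes (0.816% of all genes tested were lower and 0.766% higher without overlap), and the log2 fold change was -0.18 ± 0.09 (edgeR unadjusted p = 0.0663, adjusted p = 0.998). In axons Prpf19 was at 0.24 ± 0.22 (adjusted p = 0.9999).

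The axonal genotype differences were wider and less precise. They ran from -1.13 ± 0.62 (Snrpe, edgeR unadjusted p = 0.102, adjusted p = 0.9999) to 0.42 ± 0.27 (U2af2), with a median standard error of 0.28, and 55 of 61 lay within 0.5 of 0. No gene had axonal groups that did not overlap (0.306% of all genes tested were higher and 0.301% lower without overlap). Snrpe was at 54.7, 312, 98.1 and 36.6 CPM in +/+ and 42.2, 51.7, 73.8 and 62.6 CPM in -/- axons, and the +/+ replicate 2 stood alone at the top. Srsf1, at -0.80 ± 0.52 (adjusted p = 0.9999), was highest in the same library.

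**Figure D5:**
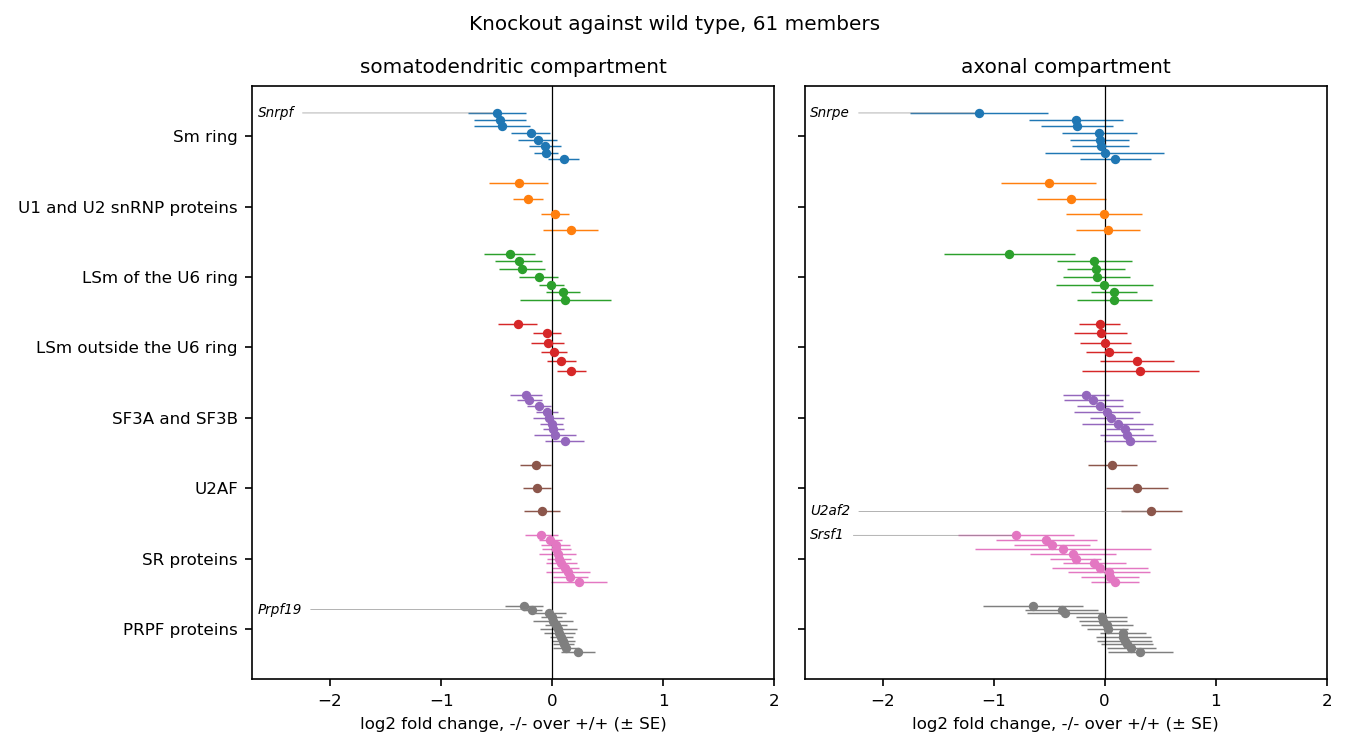
Log2 fold change of Hnrnpr -/- over +/+ (x axis, with standard errors) for the 61 genes by role (y axis) in the somatodendritic (left) and axonal compartment (right), 4 libraries per group. All somatodendritic values lie within 0.5 of 0, and the axonal ones spread from -1.13 for Snrpe to 0.42 for U2af2.

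Several of these genes share reads with others. By a search of the genome, 16 of the 61 had at least 30% of their transcript in a near-identical copy elsewhere (at least 95% identity), among them U2af2 (97.4%), Srsf5 (96.2%), Snrpc (93.2%), Srsf10 (88.5%), U2af1 (85.5%), Snrpd1 (84.2%) and Lsm5 (78.0%), and 33 had no copy. All Sm ring genes except Snrpb and Snrpd3 were among the 16. Reads that map to several places were counted as fractions, so the values of these genes are uncertain to that extent. On the opposite strand, Snrpf (89.0% of its exon bases), Srsf2 (82.1%), Srsf9 (71.7%) and Srsf4 (65.3%) overlap other genes, and U2af1l4 shares 95% with a predicted gene on its own strand. The 41 genes left without any of these gave 20 higher and 8 lower in +/+ axons (median log2 fold change 0.52), beside 30.1% and 27.4% of all genes tested. In -/- axons they gave 17 higher and 6 lower (median 0.32), beside 27.5% and 26.8%.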

How the data were processed

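RNA of both compartments was amplified with the SMART-Seq v4 kit and tagmented with Nextera XT, a preparation that does not mark strand, with more amplification for the axonal samples. Per the labels, the submitters' processing notes and the study's methods, the authors trimmed single-end reads, aligned them with STAR 2.7.2b to GRCm39, and counted exonic reads per RefSeq gene with featureCounts 1.6.4 in reverse-stranded mode, multi-mapping and overlapping reads as fractions; their notes also name DESeq2 1.24.0. The deposited values are these estimated counts, not normalised. A gene and its antisense partner therefore cannot be told apart here.

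Before testing, the fractional counts were rounded, and the 46320 genes were filtered by filterByExpr (minimum count 10, minimum total 15) to 19964. edgeR 4.0.16 in R 4.3.3 fitted quasi-likelihood models with TMM factors: all 16 libraries with a mean per group for the axonal comparisons and the interaction, and the 8 libraries of a compartment for genotype. p-values were adjusted by Benjamini-Hochberg over all genes tested, at 0.05. CPM and FPKM (CPM per kilobase of summed RefSeq exons) were computed from the TMM-scaled counts. Alternatives were DESeq2 1.42.0, limma 3.58.1 voom, other scalings and filters, unrounded counts, a replicate block, and each library left out. Scripts were tested on simulated data. No 2 libraries were identical. Precision is limited by 4 libraries per group, with a common dispersion of 0.0535 in somatodendritic and 0.302 in axonal libraries.

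Replicate numbers in the labels are shared by the groups. Deviations of the same-numbered somatodendritic and axonal libraries correlated at 0.444, 0.169, 0.246 and 0.577 in -/- motoneurons, so these were taken as paired by the data, and blocked values are given where they change a call: 32 of the 61 genes were then higher and 8 lower. For +/+ the values were 0.256, 0.262, 0.292 and 0.083. Because of the last and lowest value no pairing was assumed, although each library again correlated best with its own number. Blocked +/+ values are given as an alternative.

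Genes were named by role, with the 2 highest and 2 lowest of each role or list and those with the largest genotype differences, and values in every library given for the ones the text turns on. The members, lists and rules were chosen with earlier results of these data known. Promoters and annotation are from RefSeq, overlaps from the annotation supplied with the genome; amino acid sequences were not used here. Among the 61 members, 1 is counted but not reported by name here.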

Additional observations from a re-analysis of the deposited data

Results flagged for a closer look

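Of 152 sets of 4 libraries examined, 6 held 1 library whose gap to the nearest of the others exceeded Dixon's 95% critical value for 4 values, a limit that chance passes in about 1 of 20 groups. The sets covered only part of the 61 genes, and Sf3a3, Prpf4b and Lsm12 were among those not examined. Srsf1 was at 560.0 CPM in +/+ axonal replicate 2, above 138, 178 and 102 CPM in the other libraries of that group. Prpf39, a U1-associated protein, was at 204 CPM in the same library and between 48.4 and 63.1 CPM in the others. Snrpb was at 585 CPM in +/+ axonal replicate 3. Lsm6 was highest in +/+ somatodendritic replicate 4 (77.8 CPM) and lowest in +/+ axonal replicate 4 (56.6 CPM). Prpf40b was at 66.1 CPM in +/+ somatodendritic replicate 2, apart from the other 3.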

How the results depend on the processing

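Of the 45 genes called in +/+ motoneurons, 29 were called in all 18 alternative settings, and of the 35 called in -/- motoneurons 27 were; no called gene changed sign. The number of genes higher in +/+ axons ran from 28 to 38 and lower from 8 to 11 when 1 library was left out, and in -/- axons from 26 to 34 higher and 6 to 7 lower. Over the same settings, 5135 to 6001 of the 19964 genes tested were higher and 4955 to 5764 lower in +/+ axons. In -/- axons the ranges were 4813 to 5666 and 4512 to 5883. A pair of settings were chosen after seeing the data: without +/+ axonal replicates 2 and 3 together, 24 genes were higher and 8 lower (median log2 fold change 0.33), and without -/- axonal replicates 3 and 4 together, 23 were higher and 4 lower. Of all genes tested, 23.4% were higher and 23.7% lower in the first of these, and 19.1% and 13.6% in the second. Library totals in place of TMM factors moved the median of all genes from 0.07 to 0.22 in +/+ and from 0.00 to 0.12 in -/- comparisons, and gave 39 higher and 8 lower, and 34 and 7. Of all 19964 genes tested, library totals gave 6740 higher and 4713 lower in +/+ and 6035 and 4689 in -/- comparisons. The SR genes higher in +/+ axons numbered 6, ran from 1 to 8 over the settings (1 without axonal replicates 2 and 3, 8 with DESeq2, library totals, protein-coding genes only or without +/+ axonal replicate 4), and were 3 with voom, with the replicate block (4 in -/- axons), without +/+ somatodendritic replicate 1 or without +/+ axonal replicate 2. Genotype and interaction gave 0 genes in every alternative.

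Signs turned in 1 or more settings for 9 genes in +/+ and 7 in -/- libraries, none of them called, and the cause was not tested. Prpf6 turned in 5 and 9 settings. In +/+ libraries Sf3b1 became 0.0038 with RLE factors, 0.14 with library totals, 0.0057 without the filter, 0.0039 with DESeq2 and 0.079 over protein-coding genes, and between -0.12 and 0.053 without single libraries. Srsf1 became -0.25 with voom, between -0.34 (axonal replicate 2) and 0.73 without single libraries, and -0.57 without axonal replicates 2 and 3 together. Srsf4 lay between -0.030 (axonal replicate 3) and 0.19 without single libraries and became -0.091 without both. In -/- libraries library totals gave 0.0041 for Sf3b1 and 0.0016 for Sf3b2, and U2af2 became 0.0029 with RLE factors, 0.11 with library totals, 0.015 without the filter, 0.0027 with DESeq2, 0.076 with voom, 0.056 over protein-coding genes and -0.13 to 0.14 without single libraries.

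With the replicate block, 28 genes were higher and 10 lower in +/+ axons, and Prpf3, Prpf38a, Sf3a3, Srsf11, Srsf5, Srsf7 and U2af1 were not called. In -/- axons the block gave 32 higher and 8 lower, adding Lsm5, Srsf2, Srsf5, Srsf6 and, lower, Prpf4b. Of all 19964 genes tested, the block gave 4930 higher and 5100 lower in +/+ and 5238 and 5543 in -/- axons. Between the compartments of 1 genotype every library correlated best with its own number (8 of 8), a hint from the data and not from the design. Between genotypes this did not hold for most libraries. The block changed no genotype or interaction call.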
